A study of Mus musculus with 40 samples.

Results

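Genes that are recurrently mutated in human myeloid leukaemia were followed across the chromatin maps of mouse blood progenitors that carried other leukaemia alleles. The list holds 34 of the 21864 protein-coding genes with an annotated start site: Dnmt3a, Tet2, Idh1, Idh2 and Wt1 (DNA methylation and its cofactors), Asxl1, Asxl2, Ezh2, Suz12 and Eed (Polycomb), Kmt2a, Kmt2c, Kmt2d, Crebbp, Ep300, Setd2 and Ncor1 (histone methyltransferases, acetyltransferases and a corepressor), Srsf2, Sf3b1, U2af1, Ddx41 and Prpf8 (splicing), Rad21 and Smc3 (cohesin), Nras, Ptpn11, Cbl and Nf1 (RAS signalling), Etv6 and Ikzf1 (transcription factors), Trp53 and Ppm1d (p53 pathway), and Npm1 and Nup98 (nucleolus and nuclear pore). A peak belonged to a gene if that gene had the nearest protein-coding start site within 50 kb on mouse build mm10, and peaks within 1 kb of a start site (promoter) were kept apart from the others (distal). The rule uses gene names and no measured value, and the list was drawn up with earlier results of these data known.

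The study mapped acetylated lysine 27 and monomethylated lysine 4 of histone H3 (H3K27ac and H3K4me1) in haematopoietic stem and progenitor cells sorted from mice aged 21 days. ChIPmentation was used, in which chromatin bound by an antibody is cut and tagged by the Tn5 transposase. The labels give 6 genotypes: wild type, Flt3-ITD (a tandem duplication within the receptor kinase Flt3), NUP98-HOXD13 (which joins part of a nucleoporin to a homeodomain protein), Runx1-het, Flt3-ITD/NUP98-HOXD13 (a double mutant) and Flt3-ITD/Runx1-het (the other double mutant). Every series of 6 values below keeps this order. For each genotype and mark 1 peak list was deposited, pooled over 3 samples, or over 4 for NUP98-HOXD13 H3K27ac and for both marks of Flt3-ITD/NUP98-HOXD13, which uses 39 of the 40 samples. The Runx1-het source names combine Runxf and Vav, taken here to mean a floxed Runx1 allele with a Vav-driven transgene. The sources used here do not say whether the Flt3 change was on 1 or both copies, or which promoter drives the fusion.

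Acetylation of lysine 27 marks active promoters and enhancers, and monomethylation of lysine 4 marks enhancers whether active or poised and tends to flank active promoters rather than sit on them. The proteins made from these genes write, read or erase DNA methylation and histone marks, splice RNA, hold chromosomes together or carry growth signals, and most are made in nearly every cell type. Their known role in leukaemia comes from changes to the genes themselves. The lists described here show histone marks near the normal mouse genes, not mutations and not RNA.

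Because the lists are pooled, there is no value per animal. No group was tested against another, no p-value can be given, and the read depth is unknown. A region is called held where a listed peak overlaps it. Gained regions are held by the mutant list without being in the reference list, and lost regions the other way round. These words describe membership of lists, not a tested change. Shares carry 95% Wilson intervals, which cover counting error only, and regions of 1 gene are not independent. The 5 comparisons with wild type share 1 wild-type list, so they are not independent of each other either.

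The lists differed in ways that touch every count. The wild-type H3K27ac list held the most peaks (43363) over the least DNA (28 Mb), and its median peak was 389 bp wide. The other 5 H3K27ac lists held 31978 to 42677 peaks of median width 586 to 888 bp, over 34.7 to 44.6 Mb. The Flt3-ITD/Runx1-het H3K4me1 list stood apart by 117039 peaks of median width 296 bp, against 72682 to 95907 peaks of 343 to 436 bp in the other 5. Among 8 stem and progenitor markers, 7 or 8 carried an H3K27ac promoter peak in every list, Gata2 being without one in the Flt3-ITD, Runx1-het and Flt3-ITD/Runx1-het lists. None of 4 non-blood markers (Alb, Myod1, Ins2, Neurod1) had one. Of the markers of mature blood cells, Cd79a, Ms4a1, Cd3e, Cd3g, Hba-a1, Elane and S100a8 had none in any list, and Lck and Mpo had one in every list. The part of mature cells in the counts below was not tested.

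The genes' peaks numbered 125, 116, 126, 116, 121 and 154 in the H3K27ac lists and 289, 331, 314, 304, 356 and 364 in the H3K4me1 lists. Merged over genotypes, they formed 36 promoter and 156 distal regions for H3K27ac, and 34 promoter and 500 distal regions for H3K4me1.

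The promoter sequences below show the ground on which the main contrasts below were seen: the alternative starts of Dnmt3a, which differed in H3K27ac, the promoters of Kmt2a and Ddx41, whose H3K27ac peak was missing from some lists, and those of Nup98 and U2af1, which were among the most enriched. All are from RefSeq on GRCm38.p6 (mm10), 5′ to 3′ on the strand of the gene, ending just before the RefSeq or the GENCODE start, whichever comes first, and capitals mark each CG pair. The Dnmt3a first start lies on the plus strand (chr12:3806730-3806979) with 38 CG pairs in 250 bases. Its internal start, from which a shorter form of the protein is known to be made, lies at chr12:3891494-3891727 with 15 CG pairs in 234 bases. The others lie on the minus strand, Kmt2a at chr9:44881297-44881539, Ddx41 at chr13:55536659-55536908, Nup98 at chr7:102210177-102210361 and U2af1 at chr17:31658893-31659014.
Dnmt3a first start: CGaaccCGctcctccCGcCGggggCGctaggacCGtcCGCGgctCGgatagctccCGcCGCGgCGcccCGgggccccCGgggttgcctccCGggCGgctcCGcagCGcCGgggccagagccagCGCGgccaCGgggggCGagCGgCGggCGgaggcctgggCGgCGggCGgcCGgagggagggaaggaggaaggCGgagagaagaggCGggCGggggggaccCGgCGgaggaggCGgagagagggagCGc
Dnmt3a internal start: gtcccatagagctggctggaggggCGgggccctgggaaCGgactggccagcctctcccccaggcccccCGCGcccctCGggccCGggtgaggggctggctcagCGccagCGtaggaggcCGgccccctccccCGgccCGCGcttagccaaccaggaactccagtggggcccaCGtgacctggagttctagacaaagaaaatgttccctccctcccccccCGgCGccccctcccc
Kmt2a: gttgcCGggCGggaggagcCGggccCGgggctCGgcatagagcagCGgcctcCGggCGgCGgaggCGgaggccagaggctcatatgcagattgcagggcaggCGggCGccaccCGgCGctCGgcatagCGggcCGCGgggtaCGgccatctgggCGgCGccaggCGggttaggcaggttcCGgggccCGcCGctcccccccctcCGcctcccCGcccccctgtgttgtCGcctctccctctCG
Ddx41: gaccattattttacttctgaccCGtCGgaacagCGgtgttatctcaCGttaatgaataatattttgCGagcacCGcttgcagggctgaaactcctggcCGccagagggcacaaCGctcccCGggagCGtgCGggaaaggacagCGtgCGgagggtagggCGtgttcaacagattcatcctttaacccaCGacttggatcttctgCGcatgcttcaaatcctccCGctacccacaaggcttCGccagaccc
Nup98: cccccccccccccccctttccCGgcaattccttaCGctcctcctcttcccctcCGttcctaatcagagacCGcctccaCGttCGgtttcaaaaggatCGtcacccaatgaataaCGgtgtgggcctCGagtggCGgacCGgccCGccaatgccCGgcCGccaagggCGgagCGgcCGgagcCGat
U2af1: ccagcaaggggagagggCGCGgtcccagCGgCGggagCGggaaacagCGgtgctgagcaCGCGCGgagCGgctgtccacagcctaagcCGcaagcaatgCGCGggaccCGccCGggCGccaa

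Dense CG pairs run through the first Dnmt3a promoter and through Kmt2a, Nup98 and U2af1, while the internal Dnmt3a promoter is GC-rich (74% over its 300-base window) with fewer of them. Of the 34 genes, 31 matched the RefSeq table of promoters (250 bases before to 50 after the start), all but Npm1, Rad21 and Wt1. Their median GC content was 68.3%, against 57% over all 16522 promoters in the table. The ratio of observed to expected CG pairs had a median of 0.96, against 0.6 over all, and was above 0.6 in 29 of the 31, against 49.9% of all.

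Motifs were counted on both strands of the same 300 bases, as letters only. The SP letters GGGCGG were in 26 of the 31 promoters, against 48% of all, and the CRE letters TGACGTCA in 2 (Ppm1d and Ptpn11), against 2.41%. The letters TGTGGT, the core bound by Runx1, were in 4, Asxl1, Asxl2, Ezh2 and Prpf8, against 14.8% of all. The ETS letters GGAAGT were in 5 against 25.5%, GATA letters AGATAA in 2 against 9.71%, STAT letters TTCNNNGAA in 2 against 7.86%, MEIS letters TGACAG in 1 against 18.4% and the HOX letters TGATTTAT in 0 against 0.775%. None of the searched motifs contains another, and a match shows no binding. Because Runx1 is one of the altered genes, the promoters of the Polycomb genes Ezh2 and Asxl1 are shown with the TGTGGT match (either strand) in capitals, 217 bases before the start in Ezh2 (chr6:47595031-47595280, minus strand) and 140 bases before it in Asxl1 (chr2:153345580-153345828, plus strand).
Ezh2: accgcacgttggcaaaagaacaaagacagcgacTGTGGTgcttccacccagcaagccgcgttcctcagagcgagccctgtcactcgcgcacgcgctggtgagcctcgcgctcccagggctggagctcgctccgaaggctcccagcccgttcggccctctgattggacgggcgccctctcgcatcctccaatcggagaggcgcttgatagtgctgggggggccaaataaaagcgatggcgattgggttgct
Asxl1: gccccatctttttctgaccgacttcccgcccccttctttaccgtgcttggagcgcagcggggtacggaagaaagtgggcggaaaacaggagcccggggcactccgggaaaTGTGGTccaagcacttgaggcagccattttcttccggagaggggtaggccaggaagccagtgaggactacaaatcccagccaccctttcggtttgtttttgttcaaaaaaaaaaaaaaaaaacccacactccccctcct

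Nearly all of these promoters carried H3K27ac in every genotype. A promoter peak was present for 32, 32, 32, 31, 32 and 33 of the 34 genes, in a setting where 38.3, 42.3, 44.5, 38.6, 45 and 45.6% of all genes had one. It was in all 6 lists for 31 genes (91.2%), against 34% of all genes. Of the 33 genes with a peak in any list, 2 had it in only some lists, Kmt2a and Ddx41, against 30.6% of all such genes. Wt1, a zinc-finger protein of kidney and gonad development that can direct Tet2 to DNA, was the only one of the 34 with none, and its nearest H3K27ac peak lay 93.6 to 109 kb away. Among promoters with an observed to expected CG ratio above 0.6, 27 of 29 of these genes had the peak in all 6 lists, against 57.7% of 8251 genes.

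**Figure D1:**
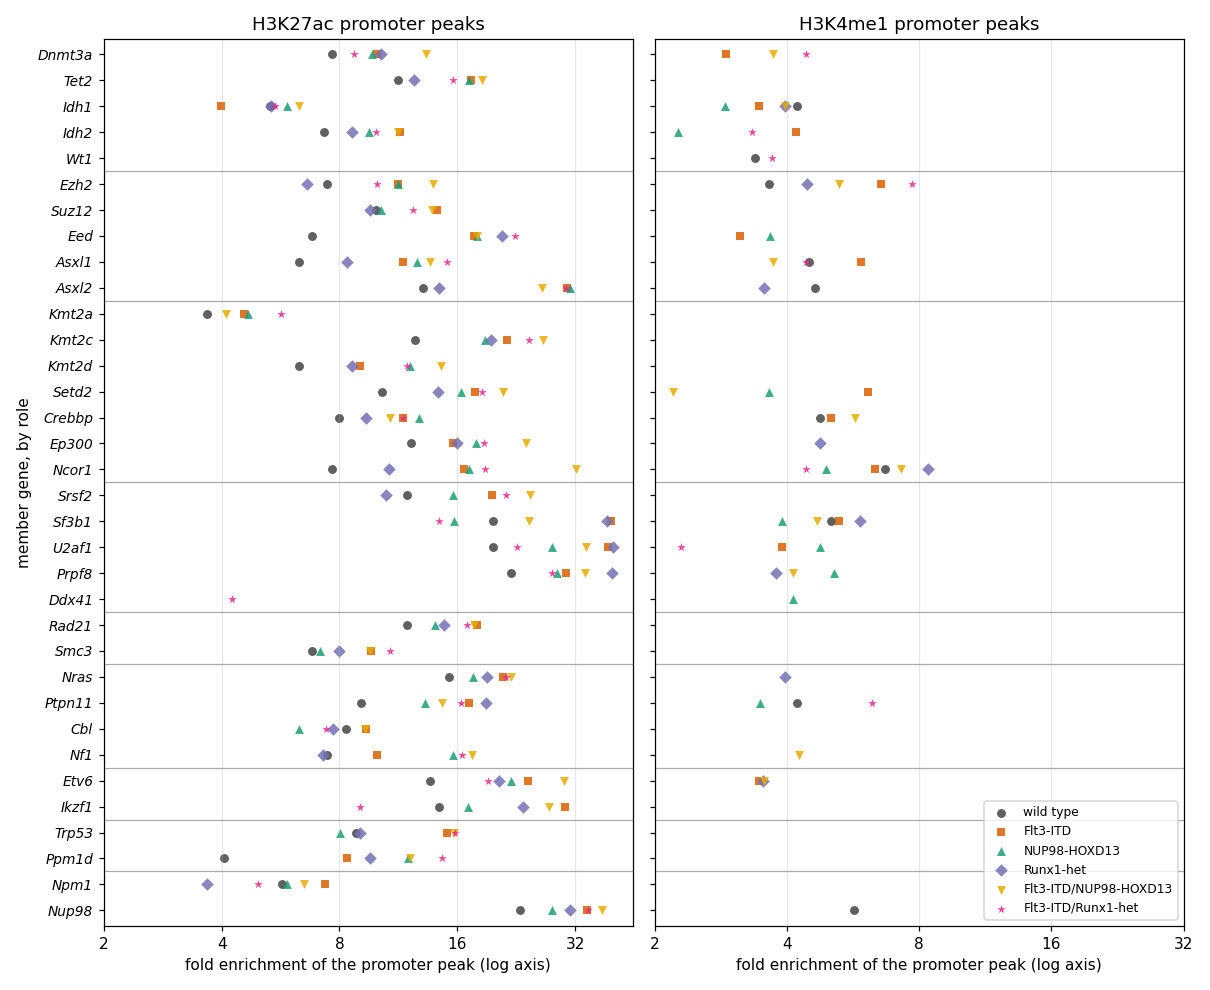
Fold enrichment of the promoter peak (log axis) for each of the 34 genes in each of the 6 pooled lists, H3K27ac in one panel and H3K4me1 in the other, with 1 point per list and no point where a list has no promoter peak. H3K27ac points are present in all 6 lists for 31 genes and absent for Wt1, while H3K4me1 points are few and low, with Ncor1 alone present in all 6.

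The fold enrichment at a promoter is the authors' peak height over control, and it describes a peak within its own list, since the lists were not scaled to each other. Over the genes with a promoter peak its median was 8.95, 16.1, 14.8, 10.7, 17.6 and 15.6, beside 7.64, 9.54, 8.8, 9.08, 10.8 and 9.76 over all genes with one. The genes' median was the higher in each list. The plot of promoter peaks shows a wide range around these medians.

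The most enriched promoters belonged to the nuclear pore and the splicing machinery. Nup98, the nucleoporin that is fused in NUP98-HOXD13, led the wild-type list (23.1) and those of the double mutants (37.4 and 34.5), and stood at 34.3, 28 and 31 in the other 3. U2af1, which recognises the 3′ splice site, led the Runx1-het list at 39.9 and stood at 19.8, 38.8, 27.9, 34.2 and 22.8 in the rest. Sf3b1, a subunit of the U2 particle, led the Flt3-ITD list at 39.6. Its other values were 19.7, 15.7, 38.6, 24.4 and 14.4, so its value was high in the Flt3-ITD and Runx1-het lists and lowest in their double mutant. As a percentile of all peaks of its own list, it stood at 98.5, 99.5, 94.8, 99.4, 96.4 and 93, near the top of each. Prpf8, a core factor of the spliceosome, stood between 22 and 39.7 in every list. Asxl2, a Polycomb-linked scaffold, led the NUP98-HOXD13 list at 31 and stood at 13.1, 30.5, 14.4, 26.3 and 30.4 in the others. The Nup98 start lies 186 bp from the start of Pgap2, and the peak cannot be split between the pair.

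Splicing otherwise held both ends of the range. Srsf2, which binds exonic enhancers, had 11.9, 19.6, 15.6, 10.5, 24.5 and 21.3, with the start of Mfsd11 726 bp away. Ddx41, a DEAD-box helicase, had a promoter peak in the Flt3-ITD/Runx1-het list alone, at 4.24 and 338 bp wide. In the other 5 lists the nearest H3K27ac peak to the Ddx41 start lay 7.39 to 7.87 kb away. The Ddx41 sequence above holds 18 CG pairs in 250 bases.

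Among the genes of DNA methylation, Tet2, which oxidises methylcytosine, had 11.3, 17.3, 17.1, 12.4, 18.5 and 15.6, the highest of its group in each list. Dnmt3a, which sets methylation on new sites, had 7.66, 9.99, 9.69, 10.2, 13.3 and 8.71, a narrow range. Idh2, a mitochondrial dehydrogenase whose mutant form makes an inhibitor of Tet2, had 7.31 to 11.4. Idh1, its cytosolic relative, was among the weakest at 3.99 to 6.3 and was the lowest of the 34 in the Flt3-ITD list.

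Which start carried the mark differed for Dnmt3a and Idh1. Start sites over 1 kb apart occur in 5 of the genes, as 11 separate starts, of which 4 held H3K27ac in all 6 lists, 5 in none and 2 in some. At Dnmt3a the internal start, 85.7 kb into the gene, held the peak in all 6 lists, with the 6 values given above. The first start, the CG-dense sequence printed first, held H3K27ac in the NUP98-HOXD13 list only, at 4.25, with H3K4me1 in the Flt3-ITD/Runx1-het list only, at 4.42. At Idh1 the second start, 7.3 kb in, was held in all 6 lists. Its first start, 223 bp from the start of Pikfyve, was held in the Flt3-ITD/NUP98-HOXD13 list at 4.05 and the Flt3-ITD/Runx1-het list at 4.59, and in no other. With starts this close, peaks cannot be split between the pair, and the nearest-start rule can give a peak to Pikfyve instead. The second Ezh2 start, both later Ncor1 starts and both Wt1 starts were held in none.

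The Polycomb genes all had the peak in 6 lists. Ezh2, the methyltransferase of the repressive complex, had 7.44, 11.3, 11.3, 6.59, 13.9 and 10, and its partners Suz12 and Eed ran from 9.56 to 14.2 and from 6.8 to 22.5. Asxl1, a cofactor of the deubiquitinase that removes the Polycomb mark on H2A, ran from 6.32 in wild type to 15.1 in Flt3-ITD/Runx1-het. Wild type had the lowest promoter value for 22 of the 32 listed genes with a wild-type peak (68.8%), against 57.3% of all such genes, so a low wild-type value is common over all genes in these unscaled lists.

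Among the histone methyltransferases, Kmt2a (the MLL1 gene) had the weakest promoter peaks. Its values were 3.68, 4.56 and 4.66 in the first 3 lists, none in Runx1-het, and 4.1 and 5.66 in the double mutants. In Runx1-het the nearest peak lay 7.21 kb away. Kmt2a was the lowest of the 34 in the wild-type, NUP98-HOXD13 and Flt3-ITD/NUP98-HOXD13 lists, although its promoter is CG-dense. Its relative Kmt2c, an enhancer methyltransferase, stood at 12.5 to 26.5, and Kmt2d at 6.32 to 14.5. The acetyltransferases Ep300 and Crebbp stood at 12.2 to 24 and 7.97 to 12.8. Setd2, which trimethylates lysine 36 of H3, stood at 10.3 to 21, and the corepressor Ncor1 at 7.65 to 32.2 with its highest value in Flt3-ITD/NUP98-HOXD13.

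Both transcription factors had broad promoter peaks. Etv6, an ETS-family repressor needed by adult stem cells, had 13.6, 24.3, 21.9, 20.5, 29.9 and 19.2, in peaks 2743 to 6908 bp wide. Ikzf1 (Ikaros), needed for lymphoid development, had 14.4, 30.1, 17, 23.6, 27.4 and 9.03, in peaks 4920 to 10828 bp wide. Ikzf1 was highest in the Flt3-ITD list and lowest in Flt3-ITD/Runx1-het, below its wild-type value. Its rank within the list, as a percentile of all peaks, was 84.4 in Flt3-ITD/Runx1-het and 95.7 to 98.5 in the other 5. These values are for the peak within 1 kb of a start. The merged promoter region (chr11:11684779-11697915) held a stronger Flt3-ITD/Runx1-het peak, at 12.8 and percentile 91.4, beside 14.4 and 96.3 in wild type. Peaks covered 10265 bp of it in Flt3-ITD/Runx1-het and 9806 bp in wild type, so the gap to wild type was smaller there.

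The RAS pathway, cohesin and p53 genes had a peak in all lists. Nras, the small GTPase, stood at 15.2 to 22, the phosphatase Ptpn11 at 9.07 to 18.9, the ubiquitin ligase Cbl at 6.32 to 9.37 and the RAS-inactivating Nf1 at 7.26 to 17.5. The cohesin genes Rad21 and Smc3 stood at 11.9 to 18 and 6.8 to 10.8. Trp53 stood at 8.04 to 15.8. Ppm1d, the phosphatase that dampens p53, had 4.06 in the wild-type list and 8.34 to 14.6 in the other 5. Npm1, a nucleolar chaperone, had 5.69, 7.35, 5.89, 3.66, 6.49 and 4.94. Its Runx1-het peak was the weakest of the 34 in that list and lay at percentile 17 of the list, against 59.8 to 76 in the other 5.

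H3K4me1 peaks were at fewer of the same starts than H3K27ac. One was present for 10, 12, 10, 9, 11 and 8 of the 34 genes (29.4, 35.3, 29.4, 26.5, 32.4 and 23.5%), while 19.2, 26.3, 27, 19.3, 28.5 and 28.4% of all genes had one. The genes' share was above that of all genes in the first 5 lists and below it in Flt3-ITD/Runx1-het. These counts of 8 to 12 genes carry no interval, and in NUP98-HOXD13 the share was 29.4% beside 27%. No direction relative to all genes is read from them. Of the 21 genes with such a peak in any list, 20 had it in 1 to 5 lists, close to the 87.2% of all such genes, and 13 of the 34 had none. Ncor1 alone was in all 6 lists, at 4.42 to 8.37. Sf3b1 was in 5 lists (3.89 to 5.87, none in Flt3-ITD/Runx1-het), and Idh1 in 5 (2.89 to 4.21, none in the same list). Ezh2 (3.65 to 7.69) lacked it in NUP98-HOXD13, counting its second start, and Asxl1 (3.71 to 5.9) lacked it in NUP98-HOXD13 and Runx1-het. Dnmt3a was in 3 lists, by its internal start in Flt3-ITD (2.91) and Flt3-ITD/NUP98-HOXD13 (3.71) and by its first start in Flt3-ITD/Runx1-het.

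The remaining H3K4me1 promoter peaks were in 3 lists or fewer and followed no shared order of genotypes. Etv6 was held in Flt3-ITD (3.46), Runx1-het (3.52) and Flt3-ITD/NUP98-HOXD13 (3.54), and Crebbp in wild type (4.76), Flt3-ITD (5.05) and Flt3-ITD/NUP98-HOXD13 (5.71). Setd2 was held in Flt3-ITD (6.12), NUP98-HOXD13 (3.64) and Flt3-ITD/NUP98-HOXD13 (2.2), and Prpf8 in NUP98-HOXD13 (5.11), Runx1-het (3.78) and Flt3-ITD/NUP98-HOXD13 (4.13). Idh2, U2af1 and Ptpn11 were also in 3 lists each, at 2.26 to 6.23. Asxl2 was in wild type (4.64) and Runx1-het (3.54), Eed in Flt3-ITD (3.13) and NUP98-HOXD13 (3.66), and Wt1, with no H3K27ac, in wild type (3.38) and Flt3-ITD/Runx1-het (3.69). In 1 list each were Nras (Runx1-het, 3.95), Nf1 (Flt3-ITD/NUP98-HOXD13, 4.27), Ep300 (Runx1-het, 4.76), Nup98 (wild type, 5.69) and Ddx41 (NUP98-HOXD13, 4.12).

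H3K4me1 lay beside these promoters instead. Of the genes with an H3K27ac promoter peak, 18 to 21 of 31 to 33 per list (56.2 to 63.6%) had their nearest H3K4me1 peak over 1 and up to 3 kb from the start, against 26.5 to 31.7% of all genes with such a promoter. Within 1 kb the shares were 21.2 to 37.5%, against 40.5 to 56% of all. With a promoter range of 2 kb, 73.5, 73.5, 70.6, 70.6, 73.5 and 64.7% of the 34 genes had a peak, against 31.3, 38.5, 39.3, 31.2, 40.2 and 41.7% of all genes. The H3K4me1 regions just outside 1 kb were those of Smc3 at 1024 bp and Npm1 at 1028 bp, each held in 6 lists, and those just inside were Idh2 at 926 bp and Nras at 966 bp.

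Away from promoters the marks were concentrated at few of the genes. Ikzf1, Dnmt3a, Etv6, Setd2 and Asxl2 together held 81 of the 156 distal H3K27ac regions (51.9%). Dnmt3a, Ikzf1, Etv6, Idh2 and Ezh2 held 208 of the 500 distal H3K4me1 regions (41.6%). The median gene of the 34 had 2 distal H3K27ac and 11.5 distal H3K4me1 regions, against 0 and 2 over all genes. No distal H3K27ac region was assigned to Idh1, Npm1, Wt1, U2af1, Kmt2c, Ddx41 or Prpf8, and Nras alone had no distal H3K4me1 region. Most distal regions lay in introns of the gene itself, 114 of 156 (73.1%) for H3K27ac and 341 of 500 (68.2%) for H3K4me1, with 30 and 123 between genes. No share over all genes is given beside these, so they are not read as a trait of the 34 genes. The H3K27ac distal regions overlapped an H3K4me1 peak of the same genotype in 68.2, 81.4, 85.7, 72.2, 84.1 and 64.3% of cases, against 51, 72.5, 75.1, 62.8, 76.1 and 70.1% over all genes. The share was above that of all genes in 5 of 6 lists and below it in Flt3-ITD/Runx1-het, but its interval left out the value of all genes in wild type alone (53.4 to 80, against 51%).

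**Figure D2:**
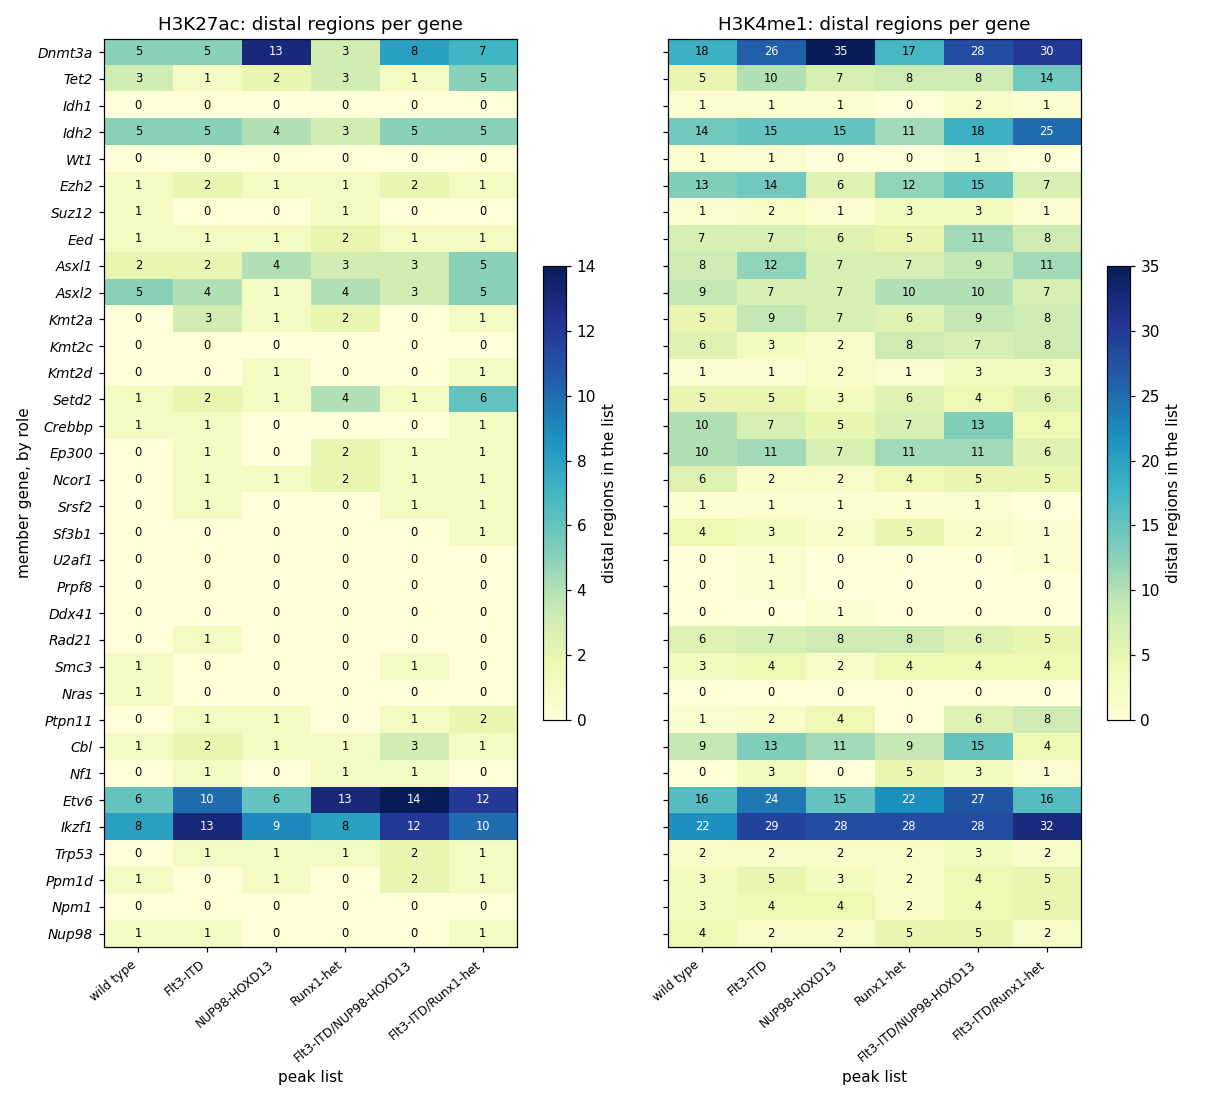
Number of distal regions held by each pooled list (columns) at each of the 34 genes (rows), 1 panel per mark, with the count written in each cell and a darker colour for a higher count. Ikzf1, Dnmt3a and Etv6 hold the most, and many splicing, cohesin and RAS genes hold 0 to 2 H3K27ac regions in a list.

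Most distal regions were in a single list. Of the 156 H3K27ac regions, 93 (59.6%) were in 1 list and 17 (10.9%) in all 6, close to the 58.3 and 12% over all genes. Of the 500 H3K4me1 regions, 225 (45%) were in 1 list and 77 (15.4%) in all 6, beside 49.8 and 9.59%. Single-list H3K27ac regions had a median highest fold enrichment of 3.35, against 6.97 for those in all 6 lists, and over all genes these medians were 3.51 and 8.62. The highest of 6 values tends to exceed a single one by construction.

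Against wild type, the distal H3K27ac regions of these genes were more often gained than lost in each mutant, and how this compared with all genes depended on the peak threshold. In Flt3-ITD 36 of 59 regions were gained (61%, against 49.1% over all genes) and 21 of the 44 wild-type regions were lost (47.7%, against 50.9%). In NUP98-HOXD13 27 of 49 were gained (55.1%, against 46.5%) and 22 of 44 lost (50%, against 55.6%). In Runx1-het 30 of 54 were gained (55.6%, against 46.8%) and 20 of 44 lost (45.5%, against 56.7%). The double mutants also had more gained than lost. In Flt3-ITD/NUP98-HOXD13 39 of 63 were gained (61.9%, against 49%) and 20 of 44 lost (45.5%, against 52.7%). In Flt3-ITD/Runx1-het 44 of 70 were gained (62.9%, against 56.6%) and 18 of 44 lost (40.9%, against 51%). The intervals of these shares held the value of all genes, apart from the gained share in Flt3-ITD/NUP98-HOXD13 (49.6 to 72.9, against 49%).

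As a share of all changed regions, with the 5 mutants in the order used above, the gained ones were 63.2% (50.2 to 74.5), 55.1% (41.3 to 68.1), 60% (46.2 to 72.4), 66.1% (53.4 to 76.9) and 71% (58.7 to 80.8). Over all genes these shares were 48.3, 40.9, 40.2, 46.3 and 55.6%. The intervals left out the value of all genes in each of the 5 comparisons, and in 3 of them left out 50%. With each H3K27ac list shortened to its 31978 strongest peaks, the shares were 69.7, 66.7, 76.7, 81.8 and 69.2%, against 61.4, 52.9, 59.3, 62.5 and 57.6% over all genes. No interval is given for these shares, which rest on fewer regions, such as 23 gained and 10 lost in Flt3-ITD. With only peaks of −log10 q of at least 5 they were 75, 53.3, 75.9, 84.6 and 57.9%, against 82.1, 45.8, 79.6, 74.7 and 66.6%. The 34 genes then lay below all genes in the lists of Flt3-ITD, of Runx1-het and of their double mutant, and above in the 2 with the fusion, so the excess over all genes did not hold at the stricter threshold in 3 of 5 comparisons. In NUP98-HOXD13 the majority of gained regions rested on 1 gene: without Dnmt3a the share was 46.2%, and with all annotated transcripts as starts it was 50%.

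Each double mutant was also set against the single mutant that lacks Flt3-ITD. In Flt3-ITD/NUP98-HOXD13 against NUP98-HOXD13, 31 of 63 H3K27ac regions were gained (49.2%, against 41.3%) and 17 of 49 lost (34.7%, against 34.4%), a gained share of 64.6% (50.4 to 76.6) beside 57.3% over all genes. In Flt3-ITD/Runx1-het against Runx1-het, 39 of 70 were gained (55.7%, against 58.3%) and 23 of 54 lost (42.6%, against 42.1%), a gained share of 62.9% (50.5 to 73.8) beside 65.7%. Both shares were within counting error of those of all genes. The second changed side when lists were made equal in length, to 42% (48.2% over all genes), so no direction can be given for it.

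**Figure D3:**
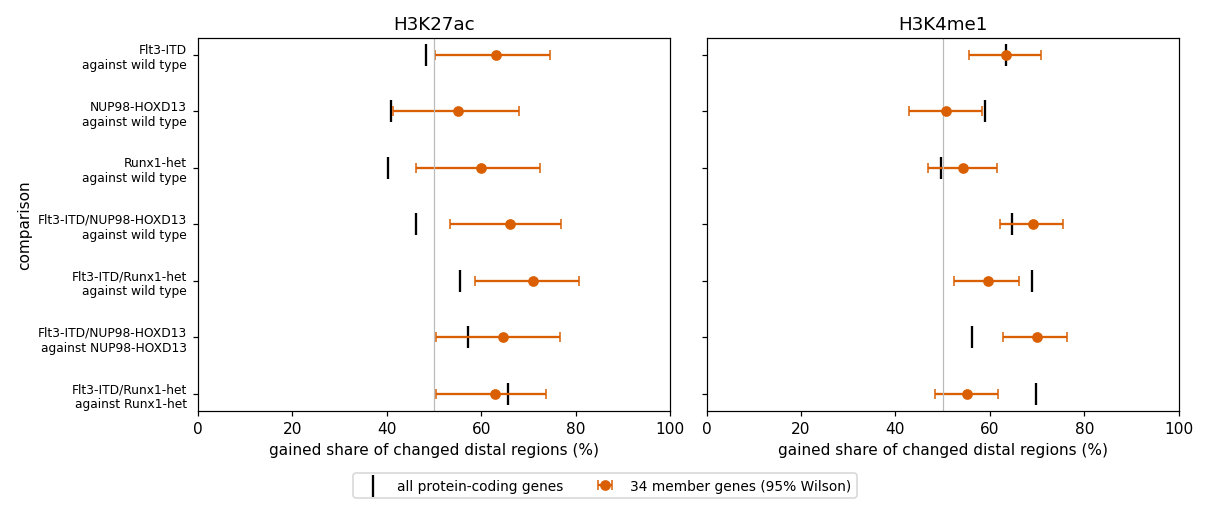
Gained share of all changed distal regions in percent for the 7 comparisons, in 1 panel per mark, with points for the 34 genes, bars for 95% Wilson intervals (counting error only) and separate markers for all genes. For H3K27ac, at the deposited threshold, the points lie above the markers in the 5 comparisons with wild type (for example 66.1% beside 46.3% in Flt3-ITD/NUP98-HOXD13), and for H3K4me1 they lie on both sides.

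H3K4me1 also had more gained than lost regions in each mutant, without a shared direction relative to all genes. In Flt3-ITD 94 of 234 regions were gained (40.2%, against 54%) and 54 of 194 wild-type regions lost (27.8%, against 40.2%). In NUP98-HOXD13 78 of 196 were gained (39.8%, against 56.5%) and 76 of 194 lost (39.2%, against 47.5%). In Runx1-het 95 of 209 were gained (45.5%, against 48.6%) and 80 of 194 lost (41.2%, against 48.9%). Both the gained and the lost shares were below those of all genes, so more of these regions were held by both lists. This also held in Flt3-ITD/NUP98-HOXD13, where 128 of 265 were gained (48.3%, against 55.5%) and 57 of 194 lost (29.4%, against 40.5%). In Flt3-ITD/Runx1-het 113 of 230 were gained (49.1%, against 64.4%) and 77 of 194 lost (39.7%, against 44.8%).

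The gained share of changed H3K4me1 regions against wild type was 63.5% (55.5 to 70.8), 50.6% (42.8 to 58.4), 54.3% (46.9 to 61.5), 69.2% (62.2 to 75.4) and 59.5% (52.4 to 66.2), beside 63.5, 59, 49.7, 64.7 and 69% over all genes. It was below that of all genes in NUP98-HOXD13 and Flt3-ITD/Runx1-het by more than the counting interval and within it in the other 3. Against NUP98-HOXD13, Flt3-ITD/NUP98-HOXD13 had gained 121 of 265 (45.7%, against 43.8%) and lost 52 of 196 (26.5%, against 37.8%). Against Runx1-het, Flt3-ITD/Runx1-het had gained 113 of 230 (49.1%, against 63.2%) and lost 92 of 209 (44%, against 42.7%). The gained shares were 69.9% (62.7 to 76.3) and 55.1% (48.3 to 61.8), the first above the 56.1% of all genes and the second below their 69.8%. H3K4me1 shares turned with the threshold: with lists of 72682 peaks each, the share against wild type was 48.6% in Flt3-ITD (50.8% over all genes) and 36.9% in NUP98-HOXD13 (48.1%), while Flt3-ITD/Runx1-het had 40.6% (49.4%). The values of all genes fell as well.

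By role, the DNA methylation genes held 13, 11, 19, 9, 14 and 17 distal H3K27ac regions, the Polycomb genes 10, 9, 7, 11, 9 and 12, and the 2 transcription factors 14, 23, 15, 21, 26 and 22. The histone methyltransferase and acetyltransferase group held 2, 8, 4, 10, 3 and 11, the fewest in wild type. Of its 33 regions none was in all 6 lists and 28 were in 1 list, beside 12 and 58.3% over all genes. Distal H3K27ac regions over all genes numbered 15549, 15023, 12896, 12649, 14421 and 17542, fewest in Runx1-het. Differences between roles were not tested. RAS signalling genes held 2 to 5 per list, p53 genes 1 to 4, and splicing, cohesin and the nucleolus and nuclear pore pair 0 to 2. The transcription factors alone made up 40 of the 156 regions.

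Counted over the 5 comparisons with wild type, where a region held by several mutants counts several times, Etv6 had 32 gained and 7 lost distal H3K27ac regions. Ikzf1 had 31 gained and 19 lost, Dnmt3a 19 and 8, and Setd2 14 and 5. Asxl2 (9 gained, 17 lost), Tet2 (7 and 10) and Idh2 (4 and 7) had more lost than gained. Asxl1 and Kmt2a each had 7 gained and none lost. The 2 wild-type regions of Asxl1 were in all 6 lists, and Kmt2a had no wild-type region to lose. For H3K4me1 the most gained were at Dnmt3a (79 gained, 33 lost), Ikzf1 (50 and 15), Etv6 (41 and 17), Idh2 (36 and 22) and Tet2 (24 and 2), with 24 gained each at Asxl1, Cbl and Kmt2a beside 18, 17 and 10 lost. Ezh2 (20 gained, 31 lost), Crebbp (14 and 28), Asxl2 (18 and 22) and Ncor1 (8 and 20) had more lost than gained. Over all genes, gained regions made up 40.2 to 55.6% of changed H3K27ac regions per comparison, and 49.7 to 69% for H3K4me1. More gained than lost H3K4me1 regions at a gene, or more lost than gained for H3K27ac, is thus no departure from all genes by itself.

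Etv6 lies at chr6:134035700-134270158 on the plus strand, and its distal H3K27ac regions numbered 6, 10, 6, 13, 14 and 12, covering 10.1, 22.2, 14.6, 21.7, 28.7 and 20.9 kb. Wild type and NUP98-HOXD13 held the fewest regions, and Flt3-ITD/NUP98-HOXD13 held the most. Of 17 regions, 3 were in all 6 lists and 3 in all 5 mutant lists but not in wild type. The strongest of those in all lists lay in an intron 29.3 kb from the start (chr6:134059838-134066869), at 10.8, 13.6, 11.4, 7.69, 9.99 and 11.5. Its H3K4me1 regions numbered 16, 24, 15, 22, 27 and 16. The count in Flt3-ITD/Runx1-het was among the lowest, in the list of narrow peaks.

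**Figure D4:**
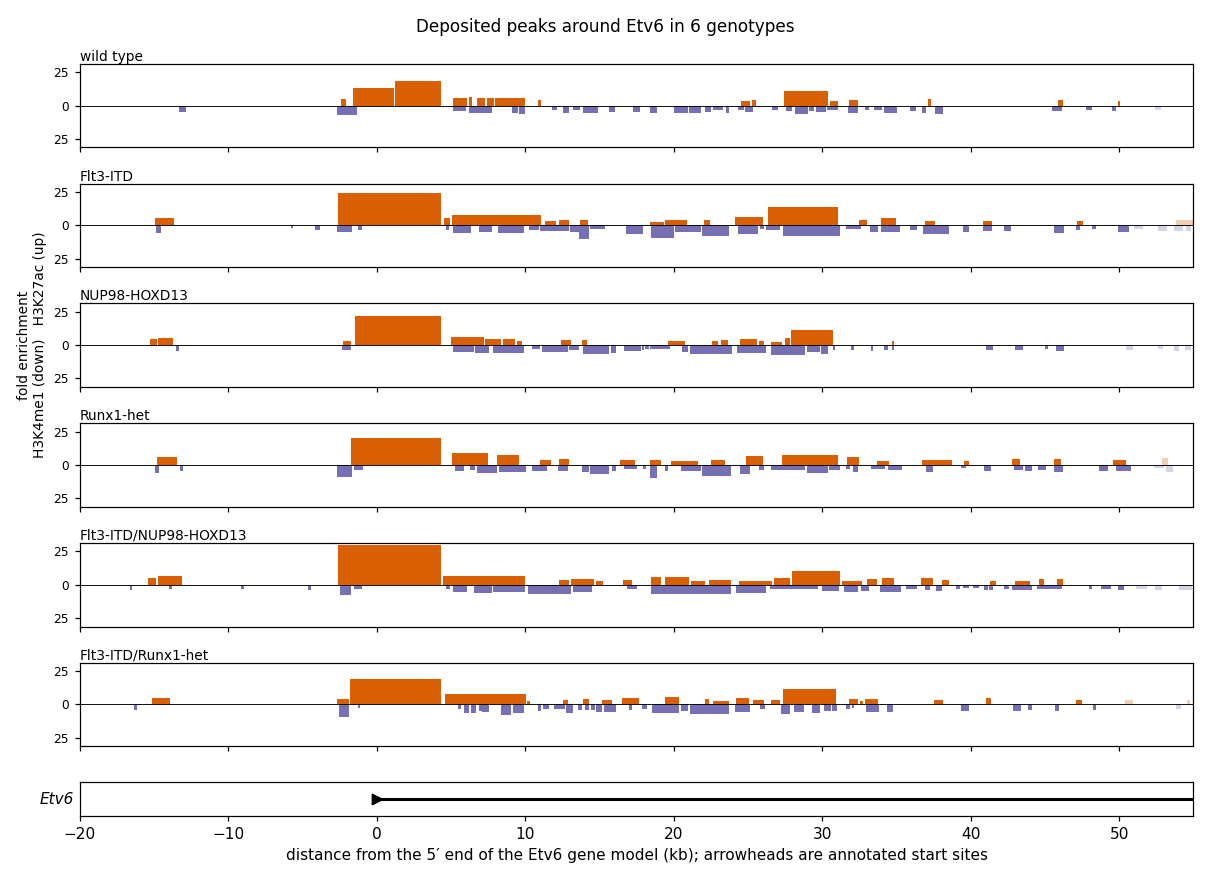
Peaks around Etv6 by distance in kb from the 5′ end of the gene model, 1 row per genotype, with H3K27ac fold enrichment upward and H3K4me1 downward, faint bars for peaks nearer to another gene's start and an arrowhead at the start site. H3K27ac 14.4 kb before the start and 20 kb into the gene appears in the 5 mutant rows and not in wild type.

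The regions in all 5 mutant lists but not in wild type numbered 5 of 156 (3.21%, against 1.25% over all genes), at 3 genes. At Etv6 one lay 14.4 kb before the start between genes (chr6:134020270-134022613), at 5.33, 5.12, 5.98, 6.82 and 4.95 in the mutants. A second lay in an intron 20 kb in (chr6:134055092-134059550), at 3.93, 4, 3.54, 5.76 and 5.63, and a further one, outside the rule for named regions and named after its values were seen, 14.2 kb in (chr6:134047953-134050309), at up to 4.39. At Trp53 the region lay in an intron 5.27 kb from the start (chr11:69585177-69586176), at 4.56, 3.93, 4.72, 7.05 and 4.24. At Ikzf1 it lay in an intron 40.9 kb in (chr11:11725488-11726647), at 4.04, 4.76, 4.79, 3.79 and 4.24. For the Trp53, Ikzf1 and first and second Etv6 regions, the wild-type H3K4me1 list held a peak there, so the site was marked in wild type by H3K4me1 and not listed for H3K27ac. With 1 pooled list per genotype, absence from the wild-type list is the only evidence of a difference at these sites, and it rests on a threshold.

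Dnmt3a lies at chr12:3806007-3914443 on the plus strand. Its distal H3K27ac regions numbered 5, 5, 13, 3, 8 and 7, highest in NUP98-HOXD13 and next in the other list with the fusion. Of its 11 single-list regions, 6 were in NUP98-HOXD13. These 6 were weak, at fold enrichments of 2.7 to 4.12 and percentiles 3.61 to 47.9 of that list. Against wild type the NUP98-HOXD13 list gained 9 and lost 1 at Dnmt3a, Flt3-ITD/NUP98-HOXD13 gained 5 and lost 2, and Flt3-ITD gained 1 and lost 1. Its H3K4me1 regions numbered 18, 26, 35, 17, 28 and 30, again with the most in NUP98-HOXD13. With lists of equal length the NUP98-HOXD13 count for H3K4me1 was 23.

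The strongest region held by both fusion lists and no other was at Dnmt3a, 24.8 kb before the gene and inside the neighbouring gene Dtnb (chr12:3780485-3781541), at 6.4 and 5.35. H3K4me1 was held there in 4 lists, both fusion lists, Flt3-ITD and Flt3-ITD/Runx1-het. The other such region, at Asxl1 12.2 kb before the gene (chr2:153333065-153333893), reached 4.25, and was named after its values were seen. These 2 of 156 (1.28%) are no larger a share than the 1.44% over all genes. Dnmt3a also held 3 of the 17 regions present in all 6 lists. They lay 49.5 kb in (chr12:3854374-3857288; 7.31, 9.14, 8.67, 8.37, 12.7 and 7.62), 45.9 kb before the gene inside Dtnb (chr12:3759163-3761263; 4.9, 9.42, 8.04, 8.24, 10 and 6.69), and 65.5 kb in (chr12:3870161-3872415; 6.98, 5.49, 5.51, 4.07, 6.65 and 9.58). The regions 49.5 and 65.5 kb in lie between the first start and the internal start whose promoter held H3K27ac in every list.

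**Figure D5:**
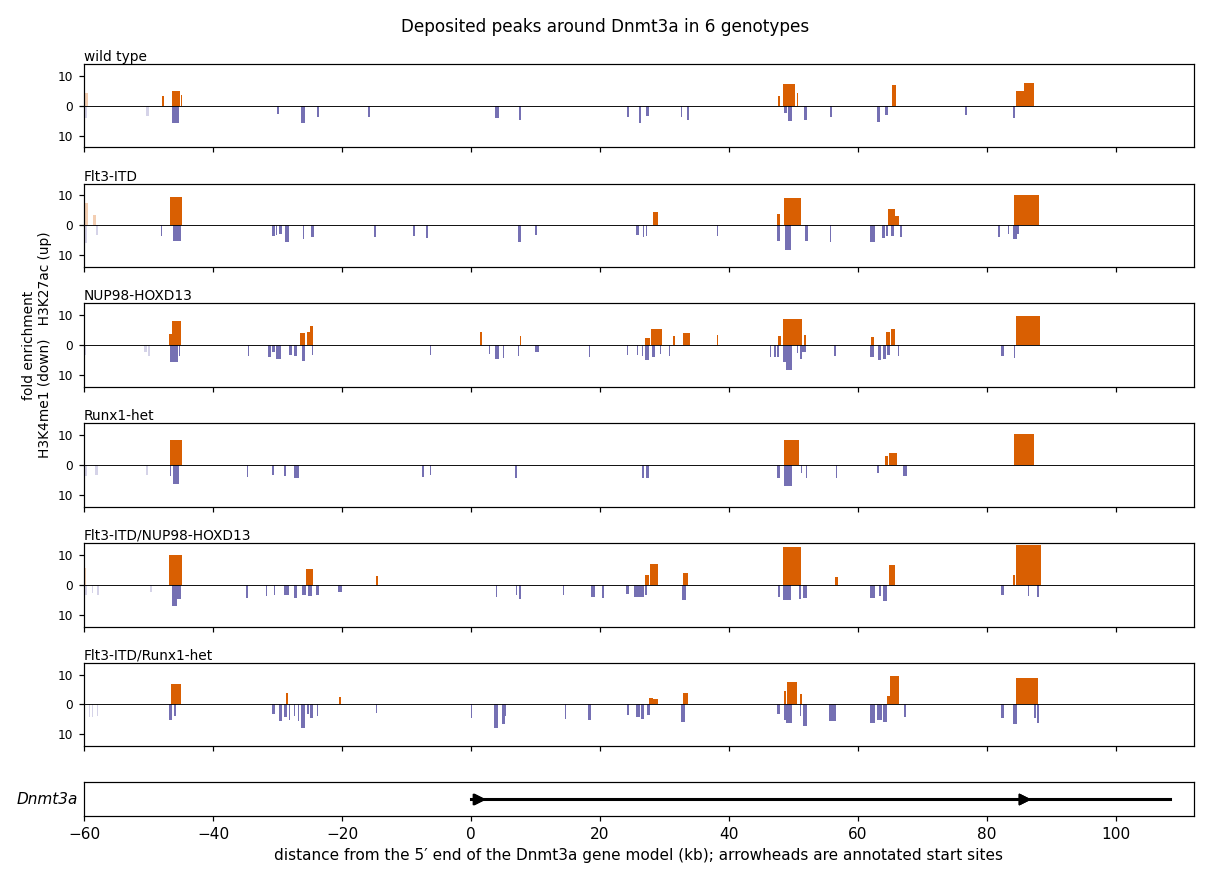
Peaks around Dnmt3a by distance in kb from the 5′ end of the gene model, 1 row per genotype, with H3K27ac fold enrichment upward and H3K4me1 downward, faint bars for peaks assigned to another gene and arrowheads at the start sites. Every row has H3K27ac at the internal start (85.7 kb), and near the first start (1 kb) only the NUP98-HOXD13 row has it.

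Ikzf1 (chr11:11685003-11772926, plus strand) held 8, 13, 9, 8, 12 and 10 distal H3K27ac regions and 22, 29, 28, 28, 28 and 32 for H3K4me1. Both counts were lowest in wild type, level with Runx1-het for H3K27ac. Over all genes wild type also held few distal H3K4me1 regions (36703, against 36484 to 56834 in the mutants). For H3K27ac it held 15549 over all genes, against 12649 to 17542. The strongest region of the whole set in wild type alone was at Ikzf1, 23.8 kb before the gene (chr11:11660933-11661337), at 5.66 and 405 bp wide, and H3K4me1 was held there in all 6 lists. Of the 156 regions, 14 (8.97%) were in wild type alone, against 14.4% over all genes.

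The regions that followed the other genotype factors were few. Held by the 3 Flt3-ITD lists and no other were 2 regions (1.28%, against 0.825%), in an exon of Srsf2 2.7 kb from its start (chr11:116850178-116851093; 5.59, 4.83 and 4.24) and in an intron of Etv6 41.2 kb in (chr6:134076542-134077367; 3.36, 2.81 and 4.94). Found in the pair of Runx1-het lists alone were 2 (1.28%, against 0.675%), in introns of Ep300 (chr15:81594359-81594964; 4.55 and 2.99) and Setd2 (chr9:110544867-110545813; 4.55 and 4.24). At counts of 2 these shares cannot be told from those of all genes.

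The strongest distal regions were those that every genotype held. At Ezh2 a region 41.3 kb before the gene between genes (chr6:47635633-47638196) had 21.8, 26.9, 25, 28.7, 30.6 and 15.5, at percentile 94.2 or higher of each list and above the Ezh2 promoter in each. At Idh2 a region 28 kb before the gene (chr7:80141968-80144371) had 6.98, 11.4, 7.03, 6.36, 9.13 and 5.84. Nearest start is the only link between these regions and the genes, and which gene they act on was not measured.

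The remaining genes with many regions differed by mark. Setd2 held 1, 2, 1, 4, 1 and 6 distal H3K27ac regions, most in the Runx1-het lists, and Asxl2 5, 4, 1, 4, 3 and 5. Tet2 held 3, 1, 2, 3, 1 and 5 for H3K27ac and 5, 10, 7, 8, 8 and 14 for H3K4me1. Its H3K4me1 count was lowest in wild type and highest in Flt3-ITD/Runx1-het. Over all genes the H3K4me1 lists held 36703, 47660, 44375, 36484, 49059 and 56834 distal regions, also few in wild type and most in Flt3-ITD/Runx1-het. Idh2 held 3 to 5 for H3K27ac, and 14, 15, 15, 11, 18 and 25 for H3K4me1. For H3K4me1, Ezh2 held 13, 14, 6, 12, 15 and 7, Crebbp 10, 7, 5, 7, 13 and 4, and Cbl 9, 13, 11, 9, 15 and 4. These 3 had their lowest or second lowest counts in Flt3-ITD/Runx1-het, although that H3K4me1 list is the longest. Ptpn11 held 1, 2, 4, 0, 6 and 8, highest in that same list.

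Other genes of the same pathways, 61 in all, had H3K27ac promoter peaks nearly as often. They were present for 54, 56, 59, 53, 59 and 57 of 61, and all 9 further Polycomb genes and all 5 further p53 genes had one in every list. The genes without one were Tet1 in all 6 lists, Cebpa in all 6, Gata2 in 3, Prpf40b in 4, and in fewer lists Dnmt1, Dnmt3b, Kat6a, Men1, Pds5b, Sos1 and Hras. H3K4me1 promoter peaks were present for 15, 25, 23, 15, 27 and 26 of the 61. For distal H3K27ac, their gained shares against wild type were 53.8, 40, 42.7, 56.8 and 62.9%, below both the 34 genes and all genes in NUP98-HOXD13 and between them in the other 4 mutants. These shares were lower than those of the 34 genes at the deposited threshold, and in Flt3-ITD and both double mutants they lay inside the 34 genes' intervals. The difference was not tested.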

How the data were processed

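H3K27ac and H3K4me1 were mapped by ChIPmentation in sorted stem and progenitor cells of 6 genotypes, and samples were grouped by their labels. Per the submitters' processing notes, BWA and MACS2 were used on mm10 (GRCm38), and the sources used here give no versions. There are 12 peak lists, pooled by the authors over the samples of a group. As deposited, they give for each peak a score, a ratio (the authors' fold enrichment at the summit) and the −log10 p and −log10 q of the peak caller. No read depth is given, so depth and its precision are unknown. The 1 input sample was not used.

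Peaks of the 6 lists of a mark were merged into regions on 1 bp of overlap. Each region was assigned to the nearest start site within 50 kb (41421 start sites of protein-coding genes, basic transcript set of GENCODE release M21). A distance runs from the summit of the region's strongest peak for the kb values from the gene model's 5′ end, and from the nearest edge for assignment to a promoter (within 1 kb). Promoter sequences came from RefSeq. The work used Python 3.11.15, pandas 2.3.3 and numpy 2.4.6, and was tested on simulated lists with planted regions. No p-value was computed, since there is no value per sample.

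Some marker genes are not reported here. The 34 genes and the pathway lists were chosen with earlier results of these data known. The written rule for genes named with values covered promoters present in some lists only and the strongest and weakest promoter of a list. It also covered the 6 genes with the most gained and with the most lost regions per mark. Its last parts were the 10 strongest H3K27ac regions that followed a genotype factor and the 6 strongest in all lists. Promoter values of the other genes, and the distal H3K4me1 counts of Ptpn11, were given outside this rule. Alternatives were lists of equal length, a −log10 q of at least 5, coverage of 0.5 of a region, distance from the summit, a 2 kb promoter, a 100 kb window, 1 start site per gene, and leaving out the gene with the most changed regions.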

Additional observations from a re-analysis of the deposited data

How the results depend on the processing

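Of 210 recomputed counts and gained shares, 170 stayed within the spread set for them (1.5 times for a count, the 95% interval for a share) and 40 moved. None moved with 1 start site per gene, the 100 kb window, or without the gene with the most changed regions, nor under 2 alternatives chosen after seeing the data (all transcripts, and any peak within 1 kb). Of 288 region counts at Etv6, Ikzf1 and Dnmt3a, 59 moved by over 1.5 times, of which 30 with the stricter −log10 q, 14 with the 100 kb window and 11 with coverage of 0.5 of a region.

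With lists of equal length, H3K27ac gained shares moved to 76.7% (Runx1-het), 81.8% (Flt3-ITD/NUP98-HOXD13) and, with Runx1-het as the reference of its double mutant, 42%. H3K4me1 shares moved to 48.6% (Flt3-ITD), 36.9% (NUP98-HOXD13), 53.8% (Flt3-ITD/NUP98-HOXD13), 40.6% (Flt3-ITD/Runx1-het) and 35.1% (against Runx1-het), and the Flt3-ITD/Runx1-het list held 5 H3K4me1 promoters.

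With a −log10 q of at least 5, H3K27ac shares were 75% (Flt3-ITD), 75.9% (Runx1-het), and 84.6% and 57.9% in the double mutants, all against wild type, beside 82.1, 79.6, 74.7 and 66.6% over all genes. For the double mutants against their single mutants they were 87% (NUP98-HOXD13 background) and 25% (Runx1-het background). H3K4me1 shares were 46.9, 4.29, 40.8, 43.1 and 34.9% for the 5 mutants against wild type, 93.5% against NUP98-HOXD13 and 42.9% against Runx1-het. H3K4me1 promoters fell to 4, 5, 0, 2, 4 and 2 genes. Counts of gained and lost regions behind these shares changed by over 1.5 times, for example 36 gained and 21 lost to 21 and 7 in Flt3-ITD for H3K27ac.

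Measured from the summit, H3K4me1 promoters were 7 (Flt3-ITD), 6 (NUP98-HOXD13), and 6 and 5 in the double mutants, and with a 2 kb range 25, 25, 24, 24, 25 and 22. With coverage of 0.5 of a region, H3K4me1 shares of Flt3-ITD/Runx1-het were 51.4% against wild type and 47.2% against Runx1-het. The cause of these moves was not tested. The excess of the H3K27ac share over that of all genes, present in 5 of 5 comparisons with wild type at the deposited threshold and with equal-length lists, was present in 2 of 5 at the stricter −log10 q. With equal-length lists it rests on few regions and has no interval, as with 23 gained and 10 lost in Flt3-ITD (69.7%, against 61.4% over all genes). In NUP98-HOXD13 the share fell to 46.2% without Dnmt3a.

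No paired analysis was possible because the lists are pooled over samples. For the same reason no sample was left out in turn. Depth is unknown.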
